A study of Mus musculus with 4 samples.

Results

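The genes described here are 36 genes that build the contractile apparatus, the calcium release machinery, the neuromuscular junction and the energy supply of skeletal muscle. They were followed in lung RNA from E18.5 mouse embryos, taken shortly before birth. Members were chosen by symbol, as every probe set annotated to 1 of the 36 names on either of 2 Affymetrix array designs, MOE430A and MOE430B. This gave 57 of 45137 probe sets, with 44 on MOE430A and 13 on MOE430B, and each of the 36 genes had at least 1, among 18193 genes named on the arrays.

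There were 4 arrays, 1 per genotype on each design: wild type lungs labelled BALB/c, and lungs labelled BALB/c Myf5:Myod null, a label for loss of both Myf5 and Myod1. Both genotypes thus carry the BALB/c label. The sources used here do not give the number of embryos behind each array, how the alleles were made, or whether 1 RNA sample served both designs. With 1 array per genotype and design there was no replicate and no test, so values are described, and their number limits the precision.

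Myf5 and Myod1 are transcription factors that commit embryonic cells to the skeletal muscle lineage, and embryos without both form no skeletal muscle. Skeletal fibres use fast or slow isoforms of the same sarcomere proteins, and fetal fibres also use embryonic and perinatal myosins and a fetal acetylcholine receptor subunit. Many of the genes are not restricted to skeletal muscle, since fetal heart muscle also makes skeletal actin, the slow troponin I and the muscle creatine kinase. The series title names its subject as the role of skeletal muscle in lung development. In lung, RNA of these genes can come from muscle or heart tissue held with the organ. In bulk RNA, fewer cells of a type and less RNA per cell cannot be told apart.

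Each value is a MAS5 signal, a linear fluorescence intensity per probe set, and pairs of signals give wild type before double knockout. The latter were rescaled by 1.004 on MOE430A and 1.008 on MOE430B. A probe set was counted as above the median when its higher signal reached its design's median (787.4 for MOE430A, 855.1 for MOE430B). Signals under the 25th percentile, 283.8 and 278.1, were set to that floor, so that a ratio with 1 signal below it is a bound. Ratios are double knockout over wild type, on the log2 scale. Signals of different probe sets are not compared with each other, because probe sets differ in brightness for the same amount of RNA.

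The targeted genes did not settle the labels. Myf5 read 110.5 and 8.94, both below the floor. Myod1 read 85.0 and 1081 on MOE430A, at least 3.81-fold higher in the double knockout-labelled array, and 337.2 and 607.2 on MOE430B, below the median. The sources used here do not place these probe sets against the deleted sequence. The genotypes are therefore named as the labels give them. Of the later myogenic regulators, Myog read 369.5 and 360.3, and Myf6 read 229.0 and 55.1, below the floor. Xist, the RNA of the inactive X chromosome, was 2.76-fold lower in the double knockout-labelled array (7600 and 2749), and embryo sex cannot be told apart from genotype. All 6 genes of the lung epithelium list were above the median, as were 5 of the 12 skeletal muscle markers (Mylpf, Myl1, Atp2a1, Ckm and Ryr1). Mylpf passed only through the wild type-labelled array, and Ryr1 only through the double knockout-labelled array, on MOE430B.

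Of the 36 members, 22 had a probe set above the median of its design, or 28 of the 57 probe sets. Among all genes on the arrays the share was 69%. By probe sets it was 19 of 44 on MOE430A, against 53.9% of the design, and 9 of 13 on MOE430B, against 57.3%. Another 7 members, namely Myh1, Actn3, Cacna1s, Chrnd, Chrng, Musk and Neb, were below the floor in both arrays by every probe set. Of the 28 probe sets, 19 were above the median in both arrays, 3 in the wild type-labelled array alone, and 6 in the double knockout-labelled array alone. The last 9 had to differ to some degree to enter by 1 array.

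**Figure D1:**
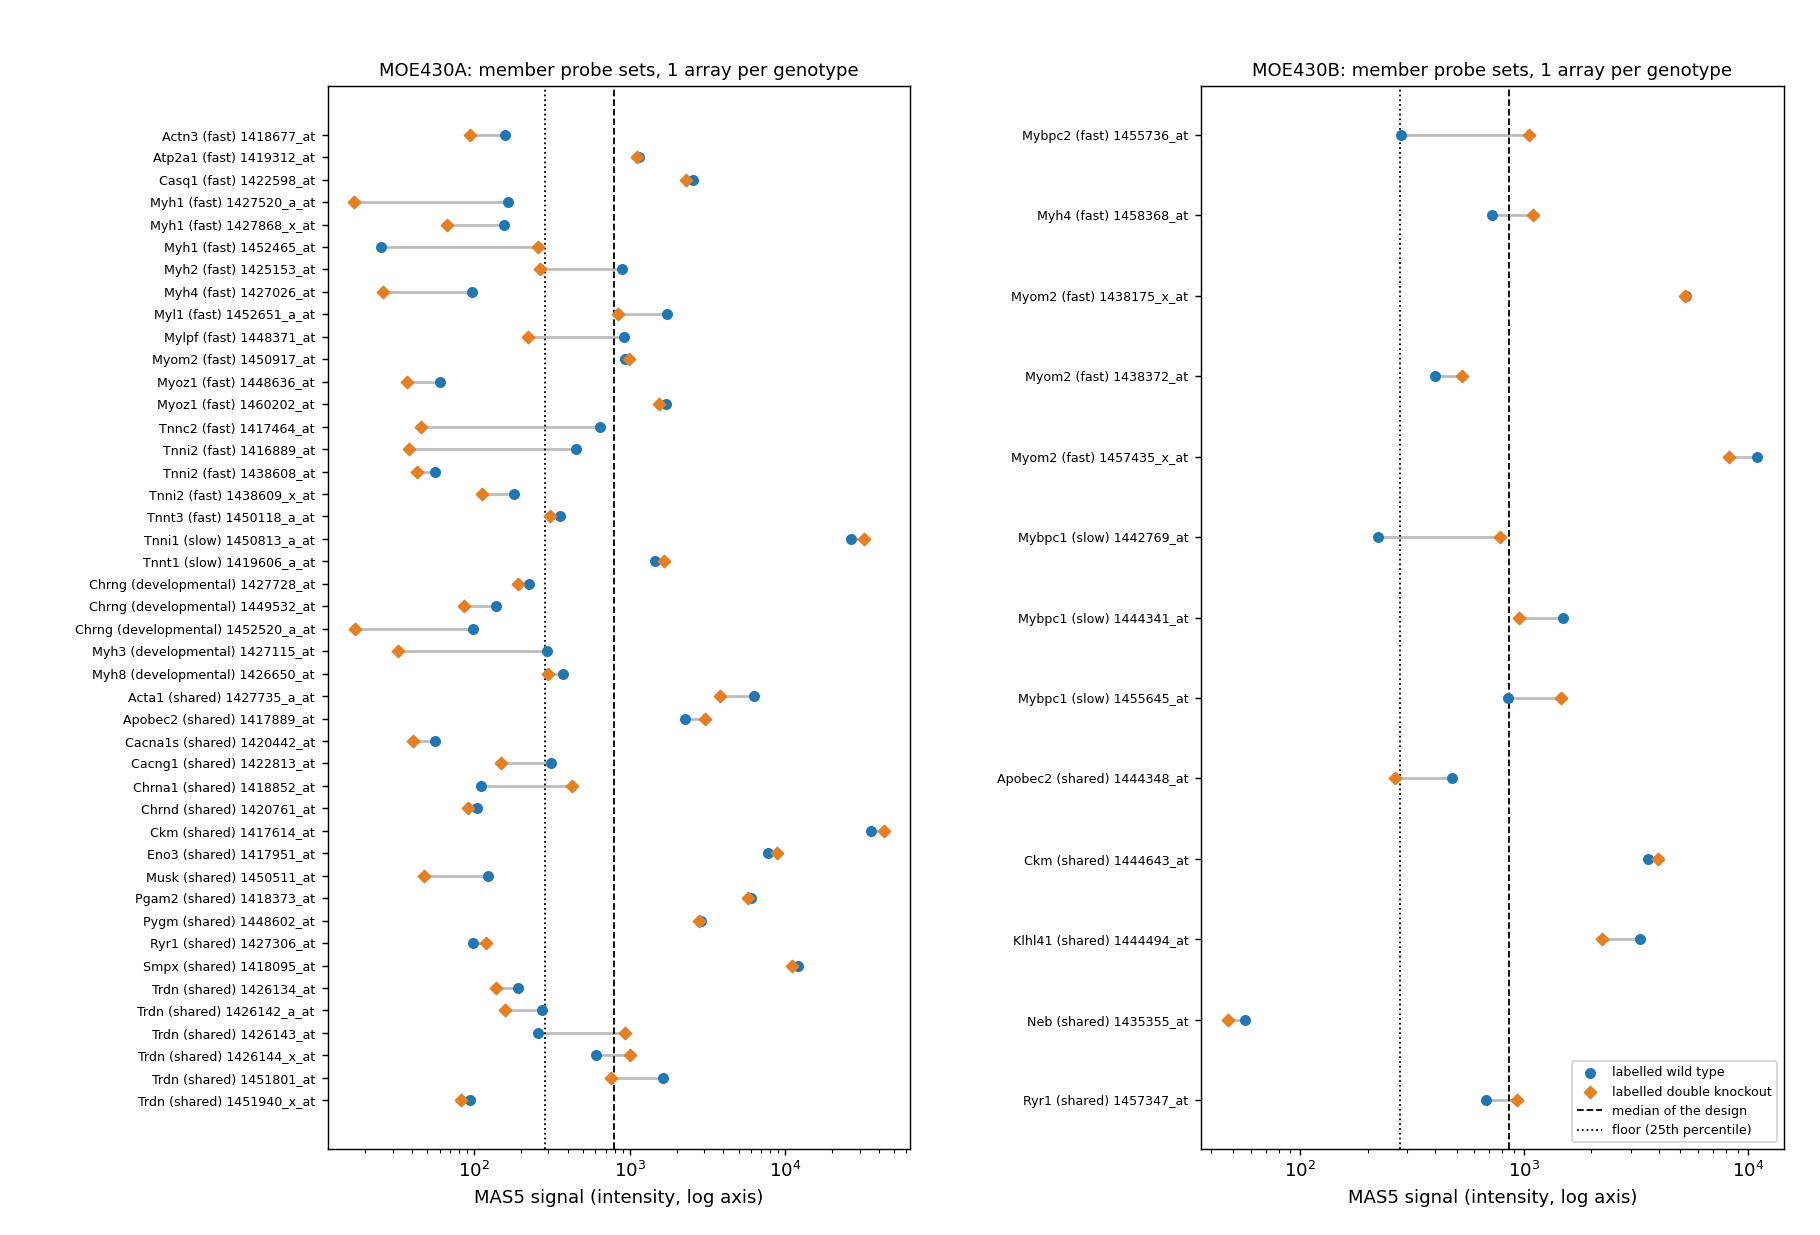
MAS5 signal (log axis) of all 57 member probe sets in the arrays labelled wild type (circles) and double knockout (diamonds), MOE430A on the left and MOE430B on the right, with the median of the design dashed and the floor dotted. Mylpf, Myh2, Tnnc2 and Tnni2 (1416889_at) run from a wild type signal above the floor to a double knockout signal below it, while Ckm and Tnni1 are far above the median in both arrays.

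Fast-fibre genes on MOE430A were mostly lower in the double knockout-labelled array, but several by little. Of 10 fast probe sets with a signal at or above the floor, 9 were lower, against 50.9% of all such probe sets of the design. The exception was Myom2. Of the 9, Mylpf, Myh2, Tnnc2 and Tnni2 were above the floor in the wild type-labelled array alone, so they could only count as lower. Atp2a1, Casq1, Myoz1 and Tnnt3 had small log2 ratios of -0.03, -0.15, -0.16 and -0.22. The count is a description. On MOE430B, 2 of 5 fast probe sets were lower, against 49.6%.

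The fast myosin light chain Mylpf, the regulatory chain of fast myosin, read 916.9 in the wild type-labelled array and 220.7 in the double knockout-labelled array, at least 3.23-fold lower. Myh2, the heavy chain of type IIA fibres, read 889.7 and 266.7, at least 3.14-fold lower. Myl1, the essential light chain of fast fibres, read 1748 and 834.4, a log2 ratio of -1.07. In all 3 the wild type signal was above the median of the design, and Mylpf and Myh2 ended below the floor.

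The fast troponins were below the median in both arrays, and 2 of the 3 genes ended below the floor in the double knockout-labelled array. Tnnc2, the calcium-binding troponin C of fast fibres, read 640.2 and 45.8, at least 2.26-fold lower. Tnni2, the inhibitory subunit of fast fibres, read 451.2 and 37.9 by 1416889_at, at least 1.59-fold lower. Its other 2 probe sets read 180.1 and 112.9, and 56.3 and 43.2, all below the floor. Tnnt3, the tropomyosin-binding subunit of fast fibres, read 355.2 and 305.7, a log2 ratio of -0.22 that was -0.0055 with a loess curve removed. None of the fast troponin genes reached the median in either array, so they are in no count of genes above it.

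The developmental genes were near or below the floor. Myh3, the embryonic myosin heavy chain, read 292.3 and 32.5, just above the floor of 283.8 in the wild type-labelled array and well under it in the other. Myh8, the perinatal heavy chain, read 372.0 and 297.8, a log2 ratio of -0.32. The 3 probe sets of Chrng, the fetal gamma subunit of the acetylcholine receptor, read between 97.9 and 224.7 in the wild type-labelled array and between 17.2 and 190.6 in the double knockout-labelled array, all below the floor. No developmental member reached the median in either array, at an age when fetal muscle uses these isoforms.

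How often other probe sets of the same wild type brightness fell under the floor was counted after these values were seen. On MOE430A, 8 member probe sets had a wild type signal between the median and the 75th percentile (1828). Of these, 2 (Mylpf and Myh2) were below the floor in the double knockout-labelled array, against 0.946% of 5710 probe sets. Another 7 had a wild type signal between the floor and the median, and 4 of them (Tnnc2, Tnni2, Myh3 and Cacng1) were below the floor in the other array, against 17.4% of 5649. In the opposite direction, 1 of 7 member probe sets with a double knockout signal between the median and the 75th percentile (Trdn by 1426143_at) was below the floor in the wild type-labelled array, against 0.839%. Between floor and median it was 1 of 4 (Chrna1), against 15.6%. On MOE430B, of the members with a wild type signal between floor and median, 1 of 6 fell below the floor (26.2% of all), and 0 of 1 between the median and the 75th percentile (4.88%). In the opposite direction it was 1 of 2 (27.8%) and 0 of 5 (5.12%).

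**Figure D2:**
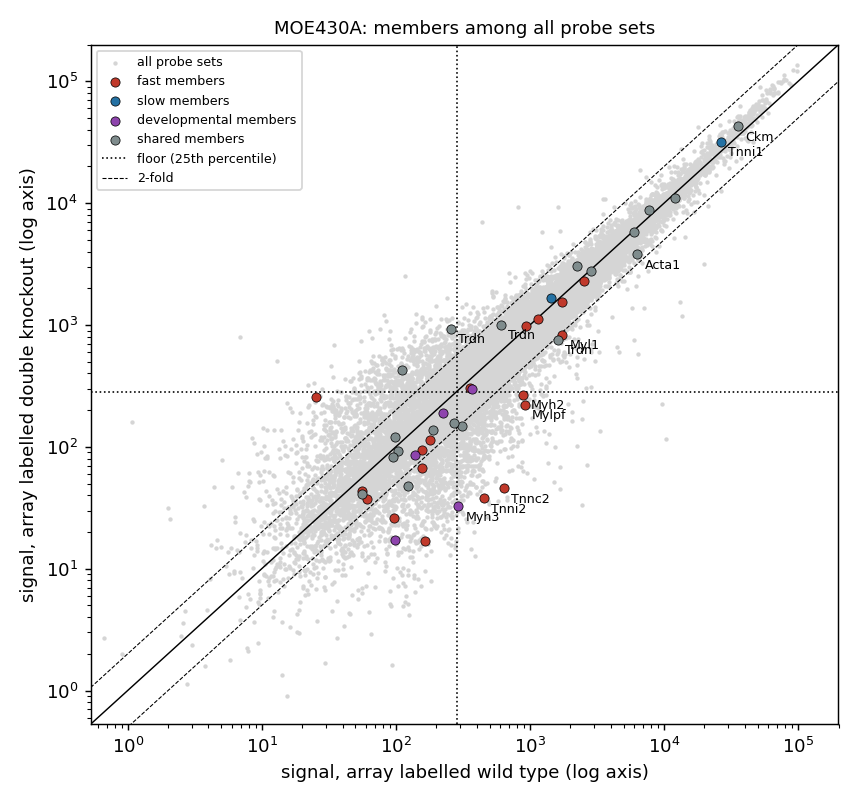
Signals of all MOE430A probe sets (grey) in the wild type-labelled array (horizontal, log axis) and double knockout (vertical, log axis), with member probe sets coloured by class, the diagonal of equal signal, dashed 2-fold lines and dotted floors. Mylpf, Myh2, Tnnc2, Tnni2 and Myh3 lie right of the vertical floor line and under the horizontal one, and Ckm and Tnni1 lie beside the diagonal.

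Other fast genes differed little. Casq1, the calcium-storing protein of the sarcoplasmic reticulum, read 2543 and 2290, a log2 ratio of -0.15. Myoz1, a Z disc protein of fast fibres, read 1720 and 1540.0 by 1460202_at, a log2 ratio of -0.16, and 60.6 and 37.1, below the floor, by its other probe set. Atp2a1, the calcium pump of fast fibres, read 1143 and 1116, a log2 ratio of -0.03 that turned sign with another scaling. These 3 differed by less than 0.24, the SD of 1 log2 ratio estimated from the 100 probe sets carried by both designs, none of which named a member. The log2 ratios of these 100 were on average 0.22 higher on MOE430A, an offset that the SD leaves out. Over all probe sets above the median, log2 ratios had an SD of 0.47 on MOE430A and 0.82 on MOE430B.

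Myom2, an M line protein of fast fibres and heart, read 933.8 and 985.3 on MOE430A, a log2 ratio of 0.08. Its 3 probe sets on MOE430B had ratios of -0.41, -0.01 and 0.40, the last below the median. The signs of the last 2 turned with another scaling.

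The other fast genes above the median on MOE430B, Mybpc2 and Myh4, went the opposite way. Mybpc2, the fast myosin-binding protein C, read 280.5 and 1054, a log2 ratio of 1.91, with the wild type signal barely above the floor of 278.1. It was 0.41 when a loess curve was removed. Myh4, the heavy chain of type IIB fibres, read 719.9 and 1100 on MOE430B, a log2 ratio of 0.61, but 97.5 and 26.1 on MOE430A, below the floor. Both passed the median only through the double knockout-labelled array. Probe sets carried by both designs read 3.96-fold higher on MOE430B. When its signals were divided by that factor, Mybpc2, Myh4 and Ryr1 were below the MOE430A floor in both arrays. Of the 9 MOE430B member probe sets above the median, 4 still reached the MOE430A median.

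Myh1, the heavy chain of type IIX fibres, had 3 probe sets that disagreed below the floor, with 165.6 and 16.9, 156.5 and 67.3, and 25.2 and 256.1. Actn3, the fast alpha-actinin of the Z disc, read 156.9 and 93.7. The heavy chain genes Myh3, Myh2, Myh1, Myh4 and Myh8 lie side by side in this order on chromosome 11 in the RefSeq table of GRCm38.p6. They are close copies, so probe sets can share signal among them.

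The 3 slow genes were above the median in both arrays by at least 1 probe set, and none was 2-fold different by it. Tnni1, the slow troponin I, read 26467 and 31995, a log2 ratio of 0.27. Tnnt1, the slow troponin T, read 1447 and 1664, a log2 ratio of 0.20. Mybpc1, the slow myosin-binding protein C, had 3 probe sets on MOE430B that disagreed. They read 1486 and 947.3 (-0.65), 850.7 and 1465 (0.78), and 222.5 and 779.2, at least 2.80-fold higher but below the median and with a sign that turned under another scaling. With both designs on 1 scale, none of the 3 reached the median.

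By the brightest probe set of each gene above the median, 14 of 22 members were lower by any amount, against 51.5% of all genes measured. The fast members had a median log2 ratio of -0.16 over 9 genes of 14, the slow members 0.20 over 3 of 3, and the members shared by fibre types -0.05 over 10 of 16. All 12559 genes measured had -0.02. The fast median covers ratios from -1.69 to 1.91, and leaves out Tnnc2, Tnni2, Tnnt3, Myh1 and Actn3. On MOE430B alone the fast median was 0.61 over 3 genes, and with both designs on 1 scale it was -0.41 over 7. The difference between the classes was not tested.

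**Figure D3:**
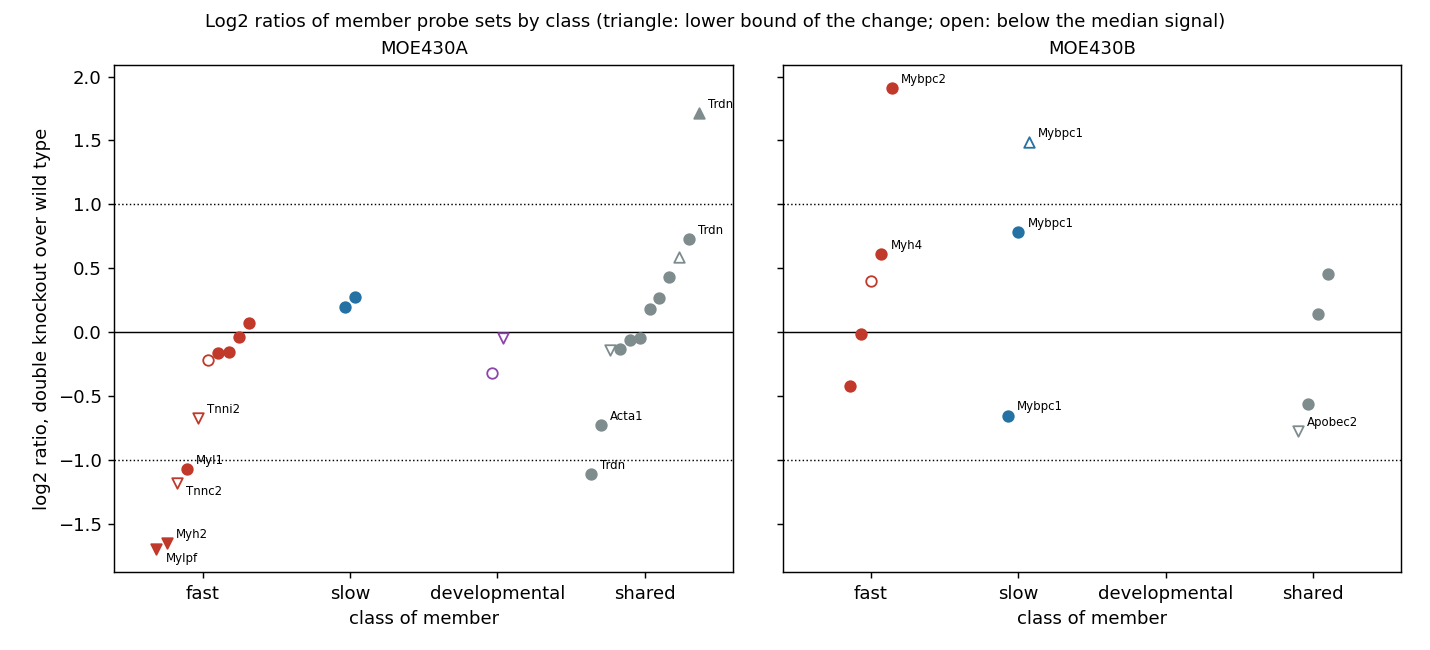
Log2 ratio, double knockout over wild type, of member probe sets with a signal at or above the floor, by class on MOE430A (left) and MOE430B (right). Filled symbols are above the median of the design, open ones below it, triangles mark bounds and dotted lines 2-fold. On MOE430A 9 of 10 fast probe sets lie below 0 and both slow ones above it, while Mybpc2 on MOE430B lies at 1.91.

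None of the thin filament and other sarcomere genes used by all fibres had a 2-fold difference above the floor. Acta1, skeletal actin, read 6305 and 3809, 1.66-fold lower, with a log2 ratio of -0.73. For comparison, 95% of all MOE430A probe sets above the median had log2 ratios between -0.90 and 0.88. Neb, the giant nebulin that sets thin filament length, read 56.6 and 47.4, below the floor. Klhl41, a protein of sarcomere assembly, read 3288 and 2227 on MOE430B, a log2 ratio of -0.56, inside the range of -1.85 to 1.91 that held 95% of MOE430B probe sets above the median. Smpx, a small muscle protein of the costamere, read 12026 and 11012, a log2 ratio of -0.13.

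Excitation-contraction coupling links the nerve-driven membrane signal to calcium release. Its skeletal voltage sensor Cacna1s read 56.3 and 40.7, below the floor, and the gamma subunit of the same channel, Cacng1, read 312.6 and 148.1, at least 1.10-fold lower. Ryr1, the calcium release channel of skeletal muscle, read 98.7 and 120.0 on MOE430A, below the floor, and 673.0 and 925.5 on MOE430B, a log2 ratio of 0.46. That MOE430B value passed only through the double knockout-labelled array, and was 0.11 with a loess curve removed. With both designs on 1 scale, both MOE430B signals of Ryr1 were below the floor.

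Trdn, the triadin that anchors the release channel in skeletal and heart muscle, was read by 6 probe sets on MOE430A, which went in both directions. Its probe set 1451801_at read 1625 and 753.4, a log2 ratio of -1.11. By 1426143_at it read 257.4 and 930.9, at least 3.28-fold higher, and by 1426144_x_at 608.7 and 1007, a log2 ratio of 0.73. The other 3 were below the floor. The annotation ties these probe sets to different triadin transcript records. No single direction can be given for the gene.

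At the neuromuscular junction no member reached the median. Chrna1, the ligand-binding alpha subunit of the acetylcholine receptor, read 111.2 and 426.6, a log2 ratio of at least 0.59. Chrnd, the delta subunit, read 104.0 and 91.7, and Musk, the kinase that gathers receptors under the nerve, read 123.1 and 47.8, all below the floor.

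The metabolic genes and Apobec2 were each above the median in both arrays by their MOE430A probe set, and none of these was 2-fold different. Ckm, muscle creatine kinase, read 35417 and 42727 on MOE430A, a log2 ratio of 0.27, and 3592 and 3967 on MOE430B, 0.14. Eno3, the muscle enolase of glycolysis, read 7776 and 8836, a log2 ratio of 0.18. Pgam2, muscle phosphoglycerate mutase, read 6021 and 5788, a log2 ratio of -0.06. Pygm, the glycogen phosphorylase of muscle, read 2872 and 2783, a log2 ratio of -0.04. Apobec2, a muscle member of the APOBEC deaminase family, read 2261 and 3046 on MOE430A, a log2 ratio of 0.43, while its MOE430B probe set went the other way, with 475.2 and 265.7, at least 1.71-fold lower but below the median.

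Counted at 2-fold among probe sets above the median, 4 of 19 members on MOE430A were lower (Mylpf, Myh2, Myl1 and Trdn by 1451801_at), against 2.05% of all such probe sets. Of these, Mylpf, Myh2 and Trdn passed the median only through the wild type-labelled array, so they had to differ to some degree to be counted, and the count is a description. On the higher side it was 1 of 19 (Trdn by 1426143_at), against 1.8%. On MOE430B none of 9 members was 2-fold lower, against 8%, and 1 (Mybpc2) was 2-fold higher, against 9.7%. MOE430B ratios were wider in general, with 95% of probe sets above the median between -1.85 and 1.91. The MOE430A count of 4 was 0 with the filter at the 75th percentile, where Mylpf, Myh2, Myl1 and Trdn are no longer included.

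Heart muscle markers were strong in the same arrays. All 15 genes of the heart list were above the median, 7 lower and 8 higher in the double knockout-labelled array, none of them 2-fold by its brightest probe set. Summed over 24 probe sets on MOE430A their signal was 515177 and 540534. Named by their bright signals, with no rank of RNA levels implied, are Myl2, the ventricular light chain (61909 and 86011), Actc1, cardiac actin (51019 and 61773), Myl3, a light chain of ventricle and slow fibres (40016 and 47889 by 1427768_s_at), and Tnnt2, cardiac troponin T (35994 and 45690 by 1424967_x_at). The probe sets of Myl3 ranged from -0.54 to 0.37.

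Members also known in heart muscle were listed apart from the rest. Of these 13, 12 were above the median (all but Neb), with a median log2 ratio of -0.05, from -1.11 to 0.43 (Apobec2). The lowest value is the brightest probe set of Trdn, for which 2 other probe sets were higher. It also counts as lower among the 14 of 22 above. Of the other 23, 10 were above the median, with a median of -0.16. Of these 10, 3 (Mylpf, Myh2 and Myl1) were at least 2-fold lower, against 3.63% of all genes measured. On MOE430A, where these 3 were read, 2.05% of probe sets above the median were 2-fold lower. On the other side, 1 of the 10 (Mybpc2, on MOE430B) was at least 2-fold higher, against 3.85% of all genes measured. Mylpf and Myh2 passed only through the wild type-labelled array, and Mybpc2 only through the double knockout-labelled array. The part of heart muscle in the values of either set was not tested.

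**Figure D4:**
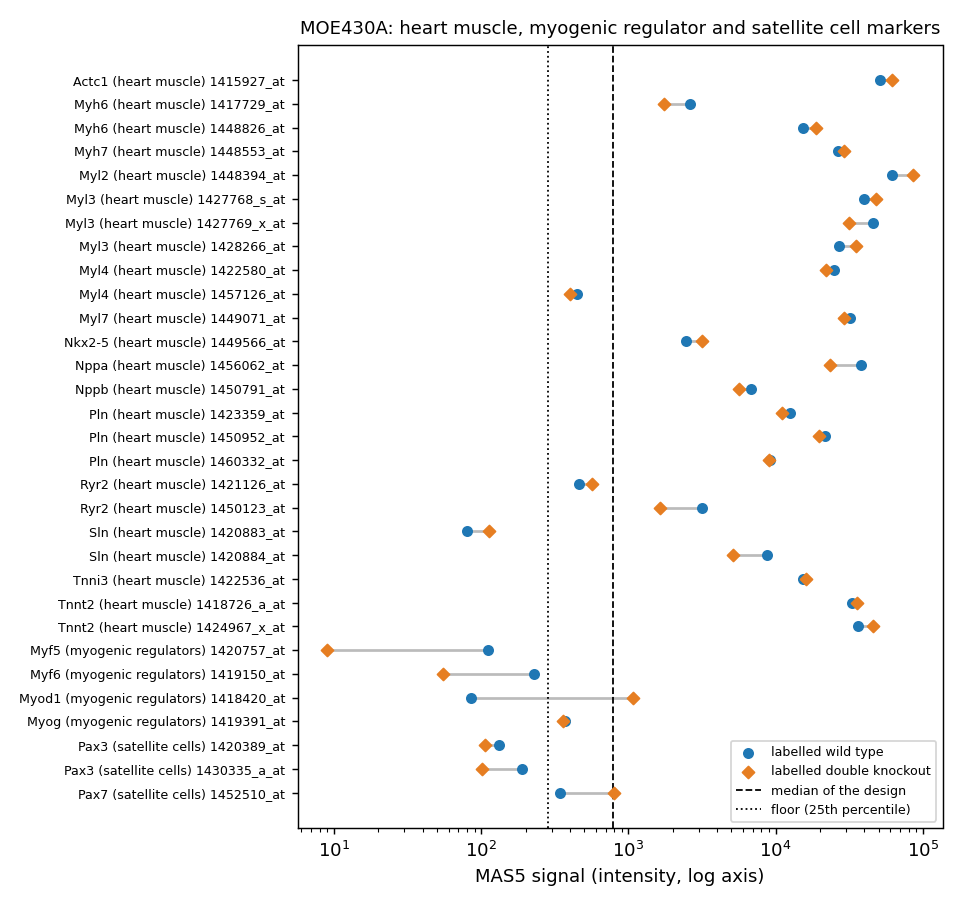
MAS5 signal (log axis) of heart muscle, myogenic regulator and satellite cell marker probe sets on MOE430A in the arrays labelled wild type (circles) and double knockout (diamonds), with the median dashed and the floor dotted. Heart markers such as Myl2 and Actc1 lie far above the median in both arrays, and of the myogenic regulators Myod1 alone passes it, in the double knockout-labelled array.

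Markers of other tissues also differed between the arrays. The lung epithelium list summed to 137752 and 194233 over 8 probe sets on MOE430A. By the brightest probe set of each gene over both designs, all 6 genes were higher in the double knockout-labelled array, with a median log2 ratio of 0.52. For Ager this was a ratio of 0.04 on MOE430B, and its MOE430A probe set was lower (-0.09). On MOE430A the thymus list, 9 probe sets, summed to 14978 in the wild type-labelled array and 2679 in the double knockout-labelled array. Over both designs 3 of the 5 genes above the median were at least 2-fold lower, against 3.63% of all genes. These 3 (Rag1, Cd3e and Prss16) passed the median only through the wild type-labelled array, so they had to differ to some degree to be counted. Cd8a is outside that count through its brightest probe set (-0.30), and another on MOE430B was at -0.70. Its other 3 probe sets were between -2.70 and -2.26, the last a bound. Rag2 and Cd4 were below the floor in both arrays. Smooth muscle markers summed to 41326 and 55132 over 11 probe sets on MOE430A, sums led by Acta2 (26823 and 38726 by 1416454_s_at). Of the 7 genes of that list, 5 were higher and 2 lower by the brightest probe set, none 2-fold. Pax7, a satellite cell marker, read 343.7 and 796.3 on MOE430A, just above the median of 787.4 in the double knockout-labelled array alone. On MOE430B Pax7 was below the floor. Pax3, the other gene of that list, was below the floor by every probe set. The part of these tissues in the result for the fast genes was not tested.

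Beyond the members, a list of 115 other skeletal muscle genes, 106 of them on the arrays, gave 76 genes above the median. Of these 38 were lower and 38 higher, with a median log2 ratio of 0.00. Some genes of the list, such as Myh7, Tnnt2 and Sln, are also heart markers here, and Des is a smooth muscle marker. The list was not split by heart expression, so these counts also cover such genes. At 2-fold, 2 genes were lower and 1 higher, against 3.63% and 3.85% of all genes measured. Vgll2, a cofactor of muscle gene transcription, read 1919 and 553.1, a log2 ratio of -1.79. It passed the median only through the wild type-labelled array. Jsrp1, a protein of the skeletal triad that binds the voltage sensor, read 2966 and 1150, a log2 ratio of -1.37. Both were read on MOE430B, inside the range of -1.85 to 1.91 that held 95% of its probe sets above the median. Of those probe sets, 8% were at least 2-fold lower. Tpm2, a tropomyosin of slow fibres and smooth muscle, read 3493 and 10800 (1.63), but 0.35, 0.07 and -0.36 by its other probe sets.

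Promoters are shown because Myf5 and Myod1 bind the E-box, the letters CANNTG. Windows of lower and of other members were not compared, and a link of E-boxes to the ratios was not tested. RefSeq promoter windows of GRCm38.p6 were found for 27 of the 36 members, 28 windows in all, as Tnni1 has 2 that overlap. The 250 bases before each annotated start are printed 5′ to 3′ in lower case, with every CANNTG in capitals. The first 4 genes were lower in the double knockout-labelled array on MOE430A, though Tnnc2 was below the median in both arrays, and the last 2 were not.

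Mylpf (GRCm38.p6 chr7:127211358-127211607, + strand): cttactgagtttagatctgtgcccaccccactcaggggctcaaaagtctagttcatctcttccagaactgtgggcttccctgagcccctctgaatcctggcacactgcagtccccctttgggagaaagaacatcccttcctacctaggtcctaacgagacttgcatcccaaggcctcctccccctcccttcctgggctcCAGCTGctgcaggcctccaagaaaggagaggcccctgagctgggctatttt
Myl1 (GRCm38.p6 chr1:66945057-66945306, - strand): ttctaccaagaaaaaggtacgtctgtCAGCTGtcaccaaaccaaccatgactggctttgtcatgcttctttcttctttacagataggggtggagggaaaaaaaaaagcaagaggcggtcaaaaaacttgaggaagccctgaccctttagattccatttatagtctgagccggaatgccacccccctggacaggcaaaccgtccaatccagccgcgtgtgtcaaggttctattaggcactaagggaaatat
Tnnc2 (GRCm38.p6 chr2:164779735-164779984, - strand): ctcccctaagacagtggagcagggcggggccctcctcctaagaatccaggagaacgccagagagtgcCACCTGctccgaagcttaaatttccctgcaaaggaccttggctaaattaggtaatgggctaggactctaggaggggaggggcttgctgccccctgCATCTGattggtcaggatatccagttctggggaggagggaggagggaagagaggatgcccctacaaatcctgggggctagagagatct
Myh2 (GRCm38.p6 chr11:67170777-67171026, + strand): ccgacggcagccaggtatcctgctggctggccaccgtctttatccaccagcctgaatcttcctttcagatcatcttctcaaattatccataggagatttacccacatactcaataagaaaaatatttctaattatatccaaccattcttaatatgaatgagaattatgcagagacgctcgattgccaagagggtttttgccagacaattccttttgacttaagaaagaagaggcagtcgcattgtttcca
Ckm (GRCm38.p6 chr7:19410844-19411093, + strand): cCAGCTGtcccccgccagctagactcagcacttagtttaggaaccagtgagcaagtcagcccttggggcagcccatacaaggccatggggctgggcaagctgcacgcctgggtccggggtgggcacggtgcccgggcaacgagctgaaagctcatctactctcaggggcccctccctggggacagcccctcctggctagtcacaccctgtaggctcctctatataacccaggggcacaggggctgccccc
Tnni1 (GRCm38.p6 chr1:135799171-135799420, + strand): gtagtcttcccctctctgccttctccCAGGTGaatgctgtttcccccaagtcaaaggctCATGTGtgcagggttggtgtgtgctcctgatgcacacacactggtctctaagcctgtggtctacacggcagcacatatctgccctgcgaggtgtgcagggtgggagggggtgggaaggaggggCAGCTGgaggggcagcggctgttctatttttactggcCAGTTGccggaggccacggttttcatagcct

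Mylpf and Myl1 each hold 1 E-box, with the letters CAGCTG that Myod1 favours. Tnnc2 holds 2 E-boxes, neither with these letters, and Myh2 holds none in this window. Of the genes that were not lower, Ckm holds 1, a CAGCTG at the far end of the window. The printed window of Tnni1 holds 4, of which 1 is CAGCTG, and its other, overlapping window holds 2, of which 1 is CAGCTG.

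Over all 28 member windows, 24 (85.7%) held CANNTG and 18 (64.3%) held CAGCTG, which is a special case of CANNTG. Both read the same on the opposite strand. Among all 32851 promoter windows of this length the shares were 66.2% and 13%. The MEF2 consensus, searched on both strands, was in 5 member windows (17.9%) and in 2.92% of all. The TATA box TATAAA, searched on both strands, was in 8 (28.6%) and in 12.4% of all. CAGCTG stood in fast (Mylpf, Myl1, Myh4, Casq1, Atp2a1), slow (Tnni1, Mybpc1), developmental (Chrng) and shared members (Acta1, Apobec2, Cacna1s, Chrna1, Ckm, Klhl41, Musk, Pgam2, Pygm). These are matches of letters, not binding sites.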

How the data were processed

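RNA of fetal lung was hybridised as labelled cRNA from 6 µg of total RNA to 4 Affymetrix arrays, per the labels. Each deposited value is a linear intensity, 1 per probe set. The submitters' processing notes name MAS5; the sources used here do not give its version, settings or detection calls. The 2% trimmed mean of each array was about 1500, so arrays were scaled separately and ratios were formed only within a design. The 64 control probe sets of each design were dropped. Signals of the double knockout-labelled array were divided by 1 factor so that the median ratio was 1, signals were filtered at the median, then set to a floor at the 25th percentile, and log2 ratios were taken. A gene was represented by its brightest probe set above the median. Gene names came from GEO's platform annotation; of the 1-gene probe sets, 20351 of 20380 and 14486 of 14661 matched the RefSeq table by Entrez identifier.

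All members are named with every probe set above the floor. Of the other muscle genes, those 2-fold different by the brightest probe set were named, at most 4 each way. All myogenic regulators and the heart genes with the 4 brightest signals are named, and other names were chosen after their values were seen. The members and lists were chosen with earlier results of these data known. Alternatives were other scalings, floors, filters, fold thresholds and probe set choices, each design alone, and both designs on 1 scale. The steps were tested on simulated arrays with changes planted only in probe sets far above the median, so that test does not cover ratios near the median or the floor. The work used python 3.11.15, pandas 2.3.3 and statsmodels 0.14.6.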

Additional observations from a re-analysis of the deposited data

How the results depend on the processing

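Under the 5 scaling and floor alternatives, 21 of the 28 member probe sets above the median kept a log2 ratio within 1 SD (0.24) of the one given. Of the 140 values computed, 10 moved by more, 8 of them with another floor, which sets the size of a bound by construction. Another floor cannot turn a sign, so a reversal could only come from another scaling. Only the 4 lower and 2 higher probe sets with a 2-fold difference could reverse one, and none did. Smaller ratios were outside that count. Among them, Atp2a1 (-0.03) and Myom2 by 1438175_x_at (-0.01) turned sign with another scaling. The MOE430A count of 4 lower probe sets was 2 with the floor at the median, 2 at 3-fold and 0 at a 75th percentile filter; the count of 1 higher was 0 with the floor at the median, 2 at 1.5-fold and 0 at that filter. On MOE430B the count of 0 lower became 1 at 1.5-fold, and the count of 1 higher became 0 with a loess curve removed, with the floor at the median, at a 75th percentile filter and with both designs on 1 scale (an alternative added after the data were seen), 2 without a filter and 3 at 1.5-fold. The fast median of -0.16 was 0.61 on MOE430B alone and -0.41 with both designs on 1 scale. The slow median of 0.20 was -0.65 over 1 gene, both on MOE430B alone and without probe sets that can match several transcripts. Without a filter, the medians were -0.16 for fast, 0.20 for slow, -0.04 for developmental and 0.00 for shared members. The cause of these differences was not tested. No paired analysis was possible because each genotype has 1 array per design. Signal over background limits the members with a signal below the floor, whose folds are bounds or cannot be given.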
